A study of Mus musculus with 36 samples.

Results

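The 7 genes described here handle retinoids or receive the retinoic acid signal: Rbp4, Aldh1a1, Dhrs3, Crabp1, Crabp2, Rara and Rarg. They were chosen by name out of 14761 genes, after knockout against WT values of these same libraries had been seen, and all 7 were measured. Knockout against WT values of the 7 are therefore a description and carry no test, whereas changes between days within a cell line were tested. Earlier results between days were known at the choice as well, so these tests are not independent of it. The study sequenced polyadenylated RNA of mouse embryonic fibroblasts (MEFs) that were WT, Mfn1-/- or Mfn2-/-, in 36 libraries, which form 12 groups of 3. Mfn1 and Mfn2 encode the mitofusins, GTPases that join the outer membranes of mitochondria. The Mfn1-/- line was sampled at day -2, 0, +3 and +8 beside a first set of WT libraries (A to C), and the Mfn2-/- line at day -2 and +8 beside a second WT set (D to F). All cells were grown to confluence by day -2. From day 0 they received D-pantothenic acid, biotin, rosiglitazone (a PPARG agonist), IBMX, dexamethasone and insulin. On day +2, +4 and +6 the medium was renewed with all of these but IBMX and dexamethasone. Each genotype is 1 cell line obtained from a cell bank, so the genotype and the line cannot be told apart.

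Retinol travels bound to RBP4, a carrier that liver and fat cells secrete. Inside a cell it is oxidised to retinal and then to retinoic acid, the second step by retinaldehyde dehydrogenases such as ALDH1A1. DHRS3 works against this route by reducing retinal to retinol. Retinoic acid is bound in the cytoplasm by CRABP1 and CRABP2, of which CRABP2 passes it to the nuclear receptors. RARA and RARG are such receptors and act on genes as partners of retinoid X receptors. In fat cells the pathway is best known for RBP4 as a secreted adipokine and for retinoic acid as an inhibitor of early adipogenesis.

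Levels are given as rescaled counts, which are reads divided by a library factor that makes all 36 libraries comparable (TMM). Total reads ran from 8800674 to 37011894 per library. Knockout against WT fold changes compared groups within each block of 6 libraries, taken as scaled together by the authors. The choice between the authors' scale and TMM shifted these comparisons of group means by at most 0.05 on the log2 scale. Log2 fold changes (log2FC) are given ± SE and were fitted on log2(value + 1), which understates changes of low genes. Mfn1 RNA was at 145 ± 10.7 rescaled counts in Mfn1-/- MEFs and 1172 ± 88.7 in WT at day -2 (mean ± SD, n = 3). At day +8, however, it was at 888 ± 272 and 883 ± 47.9, so these are called the libraries labelled Mfn1-/-. Mfn2 RNA in Mfn2-/- MEFs was at 314 ± 18.1 and 323 ± 65.8 at day -2 and day +8, against 1308 ± 41.4 and 1238 ± 65.6 in WT. Of 10 fibroblast markers, 9 were measured, Col1a1 and Vim among them, and their summed level at day -2 was 371893 to 491329 in WT A to C, 125869.8 to 134165 in Mfn2-/- MEFs and 280043 to 301660.3 in WT D to F. At day +8 it was 111053 to 119289.9 in Mfn2-/- MEFs and 393093 to 439379 in WT D to F, and 157739 to 272308 in the libraries labelled Mfn1-/- and 315412 to 581207 in WT A to C, with 5 of 9 passing as lower in each line. The 2 of 8 macrophage markers that were measured summed to at least 155 in each library labelled Mfn1-/- at day +8 and to 33.6 to 42.9 in WT A to C. Of these 2, 1 passed as higher. Their sum in WT D to F was 139 to 173 at day +8 and 191 to 222 at day -2, so the 2 WT sets differed as well. The part of these markers in the results was not tested. In bulk RNA, fewer cells that express a gene and less RNA in each of them cannot be told apart.

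A gene passed a test at an adjusted p under 0.01 (limma). In the knockout comparisons, whose values had chosen the genes, 6 of 7 members passed in Mfn1-/- MEFs at day -2, where 22.4% of all 14293 genes tested did. The count was 5 at day 0 (21.5% of all genes), 5 at day +3 (21.5%) and 6 at day +8 (50.2%). It was 5 in Mfn2-/- MEFs at day -2 (35.5%) and 3 at day +8 (38.1%). These counts follow from how the genes were chosen. Between days in WT libraries A to C, 1 of 7 members passed from day -2 to day 0 (2.86% of all genes), 2 from day 0 to day +3 (11.4%) and 1 from day +3 to day +8 (6.18%). The corresponding counts in Mfn1-/- MEFs were 0 (0.112%), 3 (17.7%) and 2 (34.0%). For the count of 0, 3 members had an unadjusted p under 0.05 in limma, and edgeR and DESeq2 on the recovered reads also called 0. From day -2 to day +8, the members passing numbered 4 in WT A to C (15.3% of all genes), 5 in the Mfn1-/- line (43.2%), 4 in WT D to F (25.4%) and 2 in Mfn2-/- MEFs (17.6%).

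**Figure D1:**
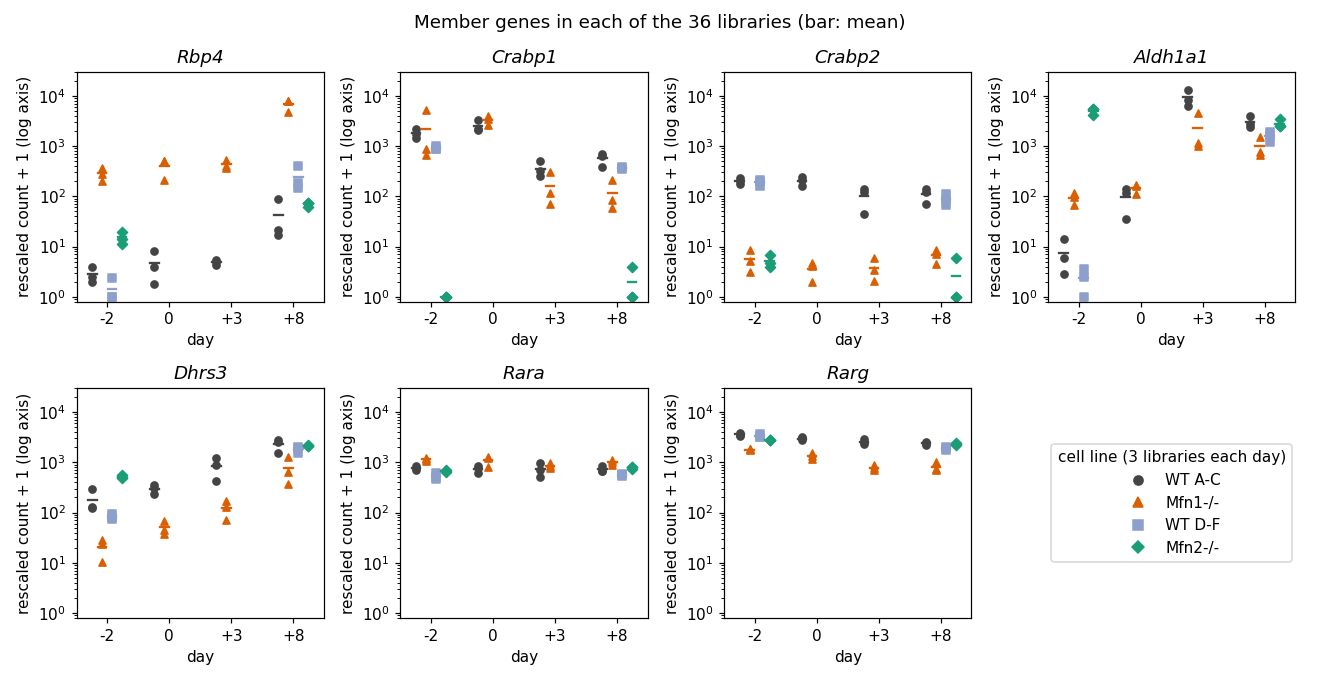
Rescaled count plus 1 (log axis) of the 7 genes in each of the 36 libraries by day, with a mark per library and a bar at each group mean. Rbp4 is highest in the libraries labelled Mfn1-/- at day +8, Crabp1 is at 0 reads in Mfn2-/- MEFs at day -2, and Rara lies between 457 and 1271 throughout.

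The 3 promoters below belong to the members that were near 0 reads in 1 group and abundant in another. Each run is the 250 bases before the RefSeq start site (GRCm38.p6), read 5′ to 3′ along the gene. Capitals mark matches, searched for on either strand, of these motifs: the TATA box with the letters TATAAA, the CCAAT box named for its own letters, the GC box with the letters GGGCGG, and the half-site that nuclear receptors bind. The half-site was searched for in the form AGGTCA, with GGGTCA as another accepted form, then AGTTCA as a further form, and lastly as GGTTCA.
Rbp4, chr19:38124812-38125061, minus strand: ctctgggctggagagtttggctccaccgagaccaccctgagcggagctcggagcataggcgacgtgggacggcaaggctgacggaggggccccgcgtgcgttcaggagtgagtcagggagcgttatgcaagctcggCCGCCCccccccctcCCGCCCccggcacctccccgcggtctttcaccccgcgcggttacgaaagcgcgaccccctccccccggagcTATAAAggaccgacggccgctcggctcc
Crabp1, chr9:54764498-54764747, plus strand: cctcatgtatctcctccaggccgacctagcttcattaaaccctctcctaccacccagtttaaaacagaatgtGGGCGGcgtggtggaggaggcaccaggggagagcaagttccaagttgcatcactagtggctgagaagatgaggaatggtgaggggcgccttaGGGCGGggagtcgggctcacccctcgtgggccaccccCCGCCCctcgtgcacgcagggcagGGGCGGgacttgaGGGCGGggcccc
Aldh1a1, chr19:20601718-20601967, plus strand: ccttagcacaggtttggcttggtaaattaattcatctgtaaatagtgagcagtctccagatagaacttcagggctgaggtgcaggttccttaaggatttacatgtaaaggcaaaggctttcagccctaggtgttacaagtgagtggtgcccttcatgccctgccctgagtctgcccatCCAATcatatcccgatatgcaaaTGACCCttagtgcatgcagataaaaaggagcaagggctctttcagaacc

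The Rbp4 run holds a TATA box 28 bases before its start site and a pair of GC boxes. The Crabp1 run holds 5 GC boxes and no TATA box. The Aldh1a1 run holds a CCAAT box that begins 72 bases before the start site and the half-site GGGTCA, on the opposite strand, that ends 44 bases before it. Among 32851 windows of 300 bases around RefSeq start sites, 13.6% hold the TATA box, 37.4% the CCAAT box, 35.7% the GC box and 43.7% a half-site. A direct repeat of half-sites 5 bases apart, a spacing that retinoic acid receptors bind, is in 0.0974% of all windows and in 0 of the 6 member windows. RefSeq windows matched 6 of the 7 members, all but Crabp2. None of these matches says that a factor binds there.

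Rbp4 (ENSMUSG00000024990, chromosome 19, 38116629 to 38125281 of GRCm38, minus strand), the gene of the retinol carrier, was far higher than in WT in Mfn1-/- MEFs at day -2, 0 and +3 and in the libraries labelled Mfn1-/- at day +8. At day -2 the 3 WT libraries A to C held 0.929, 2.92 and 1.51 rescaled counts and the 3 Mfn1-/- libraries 205, 281 and 371. This rests on 8 reads in WT and 813 in Mfn1-/- MEFs, a ratio of 174 (exact 95% counting interval 87.8 to 404). The groups did not overlap, and the same held at each later day. At day 0 the values were 7.29, 0.818 and 2.84 in WT and 212, 494 and 499.8 in Mfn1-/- MEFs, and at day +3 they were 3.88, 3.23 and 4.44 against 357, 538 and 402. By day +8 the libraries labelled Mfn1-/- held 7825, 7998 and 4692, against 87.7, 20.2 and 16.3 in WT. WT library A stood above the other two there. The fitted log2FC was 6.82 ± 0.51 at day -2, 6.79 ± 0.51 at day 0, 6.50 ± 0.51 at day +3 and 7.68 ± 0.51 at day +8. Without WT library A the day 0 value was 7.38 and the day +8 value 8.41. Without WT library B the day 0 value was 6.19, and against all 6 WT libraries the day +8 value was 6.31.

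Rbp4 behaved differently in Mfn2-/- MEFs, where it was higher than WT at day -2 and lower at day +8. At day -2 it was read 9, 15 and 7 times in the Mfn2-/- libraries and 1, 0 and 0 times in WT D to F. The ratio of these reads was 31.8 (exact 95% counting interval 5.30 to 1296), an interval that is wide because WT held a single read. At day +8 the Mfn2-/- libraries held 73.9, 73.0 and 59.3 rescaled counts and WT D to F 179.6, 148 and 399, with no overlap. The log2FC was -1.70 ± 0.51, and it was -0.27 against all 6 WT libraries of that day, since WT A to C (41.4 ± 40.2) lay below WT D to F (242 ± 137). The size of that difference depended on which WT libraries were used.

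Rbp4 rose over the days in every line. From day +3 to day +8 it rose in WT A to C (log2FC 2.73 ± 0.51, adjusted p = 0.000575) and in the Mfn1-/- line (log2FC 3.96 ± 0.51, adjusted p = 2.54e-07). The WT value was 1.99 without library A of day +8, and in a fit of only the 6 libraries it no longer passed (adjusted p = 0.0367). The 2 earlier steps did not pass in either line, with adjusted p between 0.561 and 0.815. From day -2 to day +8 it rose in WT A to C (log2FC 3.58 ± 0.51, adjusted p = 4.87e-06), in the Mfn1-/- line (log2FC 4.58 ± 0.51, adjusted p = 9.58e-09) and in Mfn2-/- MEFs (log2FC 2.23 ± 0.51, adjusted p = 0.00126). Without library A of day +8 the WT A to C value was 2.84. In WT D to F it went from 1 read to 562 reads, a ratio of 519 (exact 95% counting interval 92.8 to 20552) with adjusted p = 2.37e-12. In order of level, the libraries labelled Mfn1-/- at day +8 stood clear of all others, followed by Mfn1-/- MEFs at day +3, 0 and -2 and WT D to F at day +8, neighbours whose ranges overlapped.

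Markers of fat cells were high in the same groups as Rbp4 in part. The list named 10 genes, of which 5 were measured (Fabp4, Lpl, Pparg, Cebpa and Slc2a4). Their summed level was 245 to 331 rescaled counts in WT A to C and 2287 to 5065 in Mfn1-/- MEFs at day -2. By day +3, when no change of Rbp4 between days had passed the test, it was 1760.2 to 2398 in WT A to C and 20728 to 29318 in Mfn1-/- MEFs. At day +8 the sum was 11506 to 14674 in WT A to C, 173327 to 192856 in the libraries labelled Mfn1-/-, 27244 to 55195 in WT D to F and 2114 to 2365 in Mfn2-/- MEFs. The Mfn2-/- sum was 1907 to 2201 at day -2, so it was near the same at both days while Rbp4 rose. Single markers did rise in Mfn2-/- MEFs, as 2 of 5 passed as higher at day +8 than at day -2 and 0 as lower. All 5 passed as higher in the libraries labelled Mfn1-/- at day +8 and all 5 as lower in Mfn2-/- MEFs at day +8. Fabp4 and Pparg, which define fat cells, were at 0 reads in Mfn2-/- MEFs at day -2, where Lpl held nearly all of the sum (1915 ± 144). The part of these markers in the Rbp4 values was not tested.

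**Figure D2:**
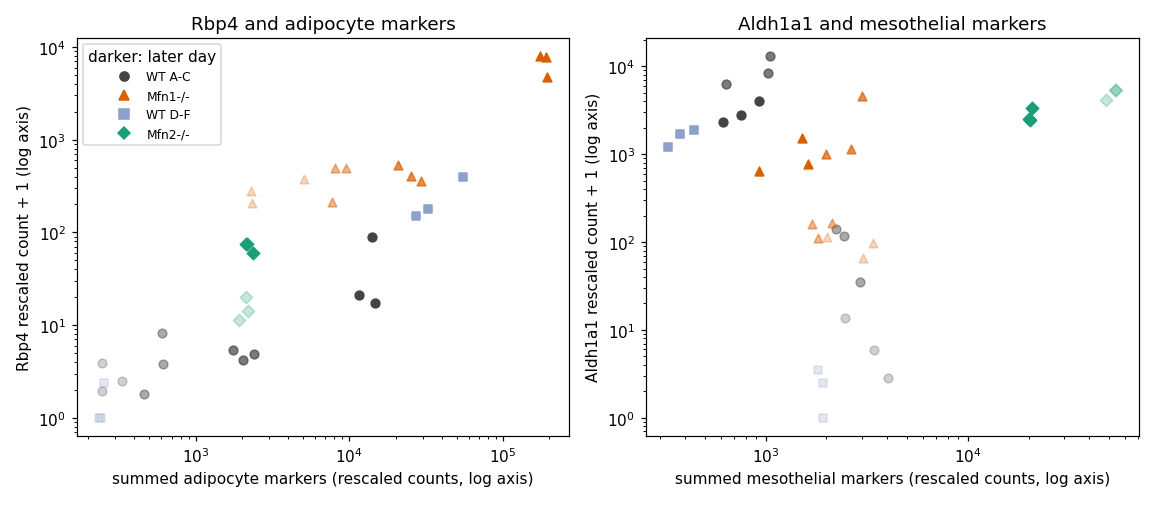
Left, Rbp4 against the summed level of 5 adipocyte markers, and right, Aldh1a1 against the summed level of 7 mesothelial markers, as rescaled counts on log axes (1 added to the gene's own count). Each mark is 1 of the 36 libraries, coloured by cell line and darker at later days, and the 3 libraries labelled Mfn1-/- at day +8 stand at the upper right of the left panel.

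Aldh1a1 (ENSMUSG00000053279, chromosome 19, 20492715 to 20643465, plus strand), a retinaldehyde dehydrogenase that makes retinoic acid, ranged from 0 to 13175 rescaled counts over the 36 libraries. In WT D to F at day -2 it was read 0, 1 and 2 times, and in Mfn2-/- MEFs 3648, 4315 and 2829 times. The ratio of reads was 3689.7 (exact 95% counting interval 1262 to 17895). Mfn2-/- MEFs thus held Aldh1a1 RNA at 5382, 5435 and 4182 rescaled counts before differentiation, when WT had almost none. At day +8 the Mfn2-/- libraries held 2515, 3381 and 2473 and WT D to F 1698, 1875 and 1204, with a log2FC of 0.78 ± 0.55 and no overlap. Against all 6 WT libraries of that day the log2FC was 0.35.

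In Mfn1-/- MEFs Aldh1a1 was higher than WT at day -2 and lower from day +3. At day -2 the values were 96.2, 65.1 and 115 in Mfn1-/- MEFs and 1.86, 4.87 and 12.8 in WT A to C (log2FC 3.96 ± 0.55). At day 0 the lines overlapped, with 163, 159 and 109 in Mfn1-/- MEFs and 34.0, 118 and 141 in WT (log2FC 0.82 ± 0.55, or 0.18 without WT library A). At day +3 WT held 13175, 6379 and 8321 and Mfn1-/- MEFs 4612, 1011 and 1138 (log2FC -2.34 ± 0.55). Library A was the highest of its group in both lines on that day, and in Mfn1-/- MEFs it stood apart from the other two. At day +8 the values were 2806, 2355 and 4043 in WT and 766, 649 and 1533 in the libraries labelled Mfn1-/- (log2FC -1.73 ± 0.55), again without overlap. The day -2 value was 4.56 without WT library C and 3.39 without WT library A, and the day +3 value -3.04 without Mfn1-/- library A.

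Over the days Aldh1a1 rose in both sets of WT libraries, and in WT A to C it had reached its highest level by day +3. In WT A to C it rose from day -2 to day 0 (log2FC 3.77 ± 0.56, adjusted p = 0.000109) and from day 0 to day +3 (log2FC 6.72 ± 0.56, adjusted p = 3.65e-09). The first of these rises did not pass in a fit of only its 6 libraries (adjusted p = 0.0178). Without library A of day 0 these 2 values were 4.40 and 6.09. From day +3 to day +8 the change in WT did not pass (log2FC -1.57 ± 0.56, adjusted p = 0.0529), although the groups did not overlap. In Mfn1-/- MEFs it rose from day 0 to day +3 (log2FC 3.61 ± 0.56, adjusted p = 3.62e-05), a value of 2.91 without library A of day +3.

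From day -2 to day +8 Aldh1a1 rose in WT A to C (log2FC 8.93 ± 0.56, adjusted p = 8.47e-12; 9.51 without library C of day -2) and in the Mfn1-/- line (log2FC 3.34 ± 0.56, adjusted p = 1.28e-05). In WT D to F it went from 3 to 3840 reads, a ratio of 1183 (exact 95% counting interval 405 to 5739) with adjusted p = 4.31e-13. In Mfn2-/- MEFs, which began high, the day +8 libraries lay below those of day -2, but the difference did not pass (log2FC -0.85 ± 0.56, adjusted p = 0.28). With only the 6 Mfn2-/- libraries in the fit it did pass (adjusted p = 0.000113). The change over days in the Mfn1-/- line differed from that in WT by -5.69 ± 0.77 on the log2 scale, a description with no test since it derives from the knockout values.

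Aldh1a7, a close paralogue of Aldh1a1, shares part of its sequence. Of the 2309 stretches of 50 bases in the longest Aldh1a1 transcript, 151 (6.54%) occur unaltered in Aldh1a7, and of those of 150 bases, the length of 1 read, 0 do. How reads with a second possible origin were counted is not given in the sources used here, so the division between the pair is uncertain. Aldh1a7 rose with Aldh1a1 in WT A to C from day 0 to day +3 (log2FC 6.31 ± 0.49, adjusted p = 4.47e-10). It went another way in Mfn2-/- MEFs at day +8, where it was lower than WT (log2FC -5.57 ± 0.48, adjusted p = 9.15e-11). At that time its level was 10.4 ± 4.25 in Mfn2-/- MEFs and 519 ± 44.4 in WT.

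Markers of mesothelium, the lining of body cavities, were high with Aldh1a1 in Mfn2-/- MEFs. Of 10 listed, 7 were measured (Upk3b, Upk1b, Lrrn4, Msln, Wt1, Bnc1 and Krt19), and 6 of 7 passed as higher in Mfn2-/- MEFs at day -2 and at day +8. In the Mfn1-/- line 5 of 7 also passed as higher than WT at day -2, 0, +3 and +8. There 1 of 7 passed as lower at day -2, 0 and +8, and Aldh1a1 itself was lower than WT at day +3 and day +8. The Mfn1-/- sum at day -2 was 2010 to 3390 and overlapped with WT A to C. The summed level was 48545 to 54263 rescaled counts in Mfn2-/- MEFs and 1818 to 1919 in WT D to F at day -2. At day +8 it was 20061 to 20902 and 329 to 442. The sum went the other way from Aldh1a1 over the days in WT, although the single markers were split. From day -2 to day +8, 2 of 7 passed as higher and 2 as lower in WT A to C (median log2FC 0.25). For WT D to F the counts were 2 higher and 3 lower (median log2FC 1.27). In WT A to C, where Aldh1a1 reached its highest level at day +3, the sum was 638 to 1054 on that day and 2474 to 4053 at day -2. Of 8 endothelial markers 3 were measured, and their sum was likewise higher in Mfn2-/- MEFs than in WT D to F, at 964 to 980.1 against 3.75 to 12.2 at day -2 and 333 to 629.7 against 8.55 to 17.9 at day +8, with 1 of 3 passing on each day. Lrrn4 was at 0 reads in WT at day -2 in both sets and in WT A to C at day 0. The part of these markers in the Aldh1a1 values was not tested.

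Dhrs3 (ENSMUSG00000066026, chromosome 4, 144892827 to 144928209, plus strand), the retinal reductase, was lower than WT in Mfn1-/- MEFs at day -2, 0 and +3 and in the libraries labelled Mfn1-/- at day +8, and higher than WT in Mfn2-/- MEFs at day -2. At day -2 Mfn1-/- libraries held 22.3, 9.45 and 27.0 rescaled counts and WT A to C 126, 121 and 289, with WT library C above the other two. At day 0 the values were 36.1, 44.3 and 67.9 against 237, 303 and 356, and at day +3 167, 125 and 69.0 against 889.5, 1198 and 416. At day +8 the libraries labelled Mfn1-/- held 1269, 643 and 377 and WT 2726, 2566 and 1564. No day had overlapping groups. The log2FC was -3.09 ± 0.41, -2.56 ± 0.41, -2.74 ± 0.41 and -1.74 ± 0.41 at day -2, 0, +3 and +8.

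Dhrs3 stood in Mfn2-/- MEFs at day -2 at 499, 486 and 547 against 93.8, 74.5 and 78.8 in WT D to F (log2FC 2.62 ± 0.41). The same comparison at day +8 gave 2229, 2127 and 2082 and 1888, 2057 and 1555 (log2FC 0.20 ± 0.41). The groups lay next to each other at day +8, without overlap.

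Dhrs3 rose from day -2 to day +8 in all 4 sets of libraries. The rise was log2FC 3.75 ± 0.41, adjusted p = 1.16e-07 in WT A to C and log2FC 5.16 ± 0.41, adjusted p = 3.02e-11 in the Mfn1-/- line. It was log2FC 4.46 ± 0.41, adjusted p = 2.00e-09 in WT D to F and log2FC 2.07 ± 0.41, adjusted p = 0.000311 in Mfn2-/- MEFs. Of the single steps, the one from day +3 to day +8 passed in the Mfn1-/- line (log2FC 2.57 ± 0.41, adjusted p = 9.27e-06). The WT A to C steps from day 0 to day +3 (log2FC 1.37 ± 0.41, adjusted p = 0.0167) and from day +3 to day +8 (log2FC 1.54 ± 0.41, adjusted p = 0.0115) did not pass, although their groups did not overlap. Both steps passed with edgeR on the recovered reads (adjusted p = 0.00629 and 0.00824).

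**Figure D3:**
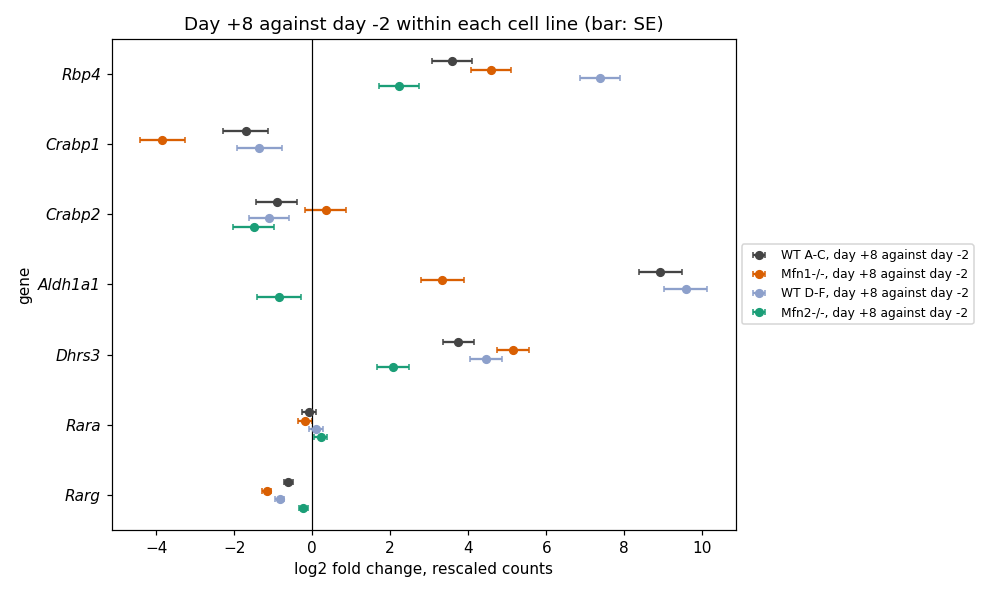
Log2 fold change from day -2 to day +8 of the 7 genes within each cell line, on rescaled counts plus 1 (points, with SE as bars, n = 3 libraries a day). Rbp4 and Dhrs3 are above 0 in all 4 lines, Aldh1a1 is above 0 in both WT sets and in the Mfn1-/- line, and Rara lies near 0. Crabp1 in Mfn2-/- MEFs is not drawn because both days held 3 reads or fewer.

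Crabp1 (ENSMUSG00000032291, chromosome 9, 54764748 to 54773110, plus strand), a cytoplasmic retinoic acid binder, was abundant in WT MEFs and absent or nearly so in the Mfn2-/- line. It had 0, 0 and 0 reads in the Mfn2-/- libraries at day -2, against 653, 681 and 701 in WT D to F. With 3 reads over the group set in place of 0, Crabp1 was at least 661-fold lower. At day +8 it had 2, 0 and 0 reads against 283, 301 and 273. The ratio of WT to Mfn2-/- reads was then 416 (exact 95% counting interval 115 to 3437). In rescaled counts WT D to F held 888, 1015 and 877 at day -2 and 346, 359 and 375 at day +8.

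In Mfn1-/- MEFs Crabp1 overlapped with WT at day -2, 0 and +3, and in the libraries labelled Mfn1-/- it was lower at day +8. At day -2 the Mfn1-/- libraries held 665, 867 and 5137 and WT A to C 2218, 1738 and 1474. Library C stood far above the other two of its group. The log2FC of -0.27 ± 0.56 turned with it, to -1.19 without library C and 0.28 without library A. At day 0 the values were 2595, 3478 and 3884 against 3268, 2210.3 and 2126 (log2FC 0.44 ± 0.56). At day +3 they were 115, 298 and 69.8 against 498, 318 and 252 (log2FC -1.34 ± 0.56), with library B of Mfn1-/- MEFs inside the WT range and a log2FC of -1.92 without it. At day +8 the libraries labelled Mfn1-/- held 82.6, 56.2 and 211 and WT 631, 683 and 380.2 (log2FC -2.47 ± 0.56), with no overlap.

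Crabp1 fell between day 0 and day +3. It fell in WT A to C (log2FC -2.86 ± 0.57, adjusted p = 0.000713) and in Mfn1-/- MEFs (log2FC -4.60 ± 0.57, adjusted p = 2.03e-06). From day +3 to day +8 neither line passed, with adjusted p = 0.459 in WT and 0.573 in the Mfn1-/- line. Over the whole course, from day -2 to day +8, the fall passed in the Mfn1-/- line (log2FC -3.84 ± 0.57, adjusted p = 2.66e-06), where it was -2.92 without library C of day -2. In WT A to C (log2FC -1.70 ± 0.57, adjusted p = 0.0289) and WT D to F (log2FC -1.36 ± 0.57, adjusted p = 0.0625) the difference did not pass, although every day +8 library lay below every day -2 library in each set. With only the 6 libraries of a comparison both passed (adjusted p = 0.00147 and 2.47e-10), and on the authors' scale WT A to C passed too (adjusted p = 0.00706). No fold is given for Mfn2-/- MEFs.

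Crabp2 (ENSMUSG00000004885, chromosome 3, 87948666 to 87953376, plus strand), the binder that delivers retinoic acid to its receptors, was low in all knockout groups. WT A to C held 232, 199.6 and 172 rescaled counts at day -2 and Mfn1-/- MEFs 4.05, 7.35 and 2.16. At day +8 WT held 123, 136 and 70.7 and the libraries labelled Mfn1-/- 6.01, 3.59 and 7.55. WT was thus well above the other group at both ends of the course. On day 0 Mfn1-/- MEFs held 3.01, 3.77 and 1.01 and WT 236, 208 and 156, and on day +3 1.02, 2.39 and 4.87 and 119, 141 and 42.9. WT library C was the lowest of its group on all 4 days. The Mfn2-/- libraries held 2.95, 3.78 and 5.91 at day -2 and 0, 4.79 and 0 at day +8. WT D to F held 159, 213 and 191 and 112, 84.7 and 67.3 on those days. In each of the 6 comparisons every knockout library lay below every WT library.

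The fitted log2FC of Crabp2 ran from -5.98 ± 0.51 in Mfn1-/- MEFs at day 0 to -4.05 ± 0.51 in the libraries labelled Mfn1-/- at day +8. It was -5.10 ± 0.51 and -5.35 ± 0.51 in Mfn2-/- MEFs at day -2 and day +8, the latter -6.09 without Mfn2-/- library B. These values rest on few knockout reads, from 4 to 14 per group. By reads, WT exceeded Mfn2-/- MEFs by a ratio of 44.7 (exact 95% counting interval 23.3 to 98.5) at day -2 and 51.4 (exact 95% counting interval 19.8 to 190.4) at day +8. Crabp2 passed in 0 of the 10 comparisons between days with limma, edgeR or DESeq2, and in limma 3 of them had an unadjusted p under 0.05. Mfn2-/- MEFs differed by the most between day -2 and day +8 (log2FC -1.50 ± 0.52, adjusted p = 0.0305), where 9 and 4 reads were compared, and without library B of day +8 this was -2.34 and passed (adjusted p = 0.00063). In WT D to F the difference of Crabp2 (log2FC -1.11 ± 0.52, adjusted p = 0.0948) passed with only its 6 libraries (adjusted p = 7.82e-05).

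Rarg (ENSMUSG00000001288, chromosome 15, 102234938 to 102257517, minus strand), the gamma receptor of retinoic acid, was lower than in WT in Mfn1-/- MEFs at day -2, 0 and +3 and in the libraries labelled Mfn1-/- at day +8. At day -2 Mfn1-/- libraries held 1827, 1836 and 1729.8 rescaled counts and WT A to C 3911, 3356 and 3569. At day +3 the values were 705, 876 and 769 and 2590.1, 2848 and 2291. Libraries within a group lay close together and the groups far apart. The log2FC was -0.96 ± 0.12 at day -2, -1.11 ± 0.12 at day 0, -1.71 ± 0.12 at day +3 and -1.58 ± 0.12 at day +8. For the Mfn2-/- line it was -0.29 ± 0.12 at day -2, with 2788, 2727 and 2736 against 3209, 3236 and 3648. At day +8 it was 0.28 ± 0.12, with 2438, 2363 and 2255 against 1909, 1974 and 1764. The Mfn2-/- libraries thus lay just below WT D to F on one day and just above it on the other. Against all 6 WT libraries the day +8 value was 0.16.

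Rarg fell with differentiation in 3 of the 4 sets of libraries. From day -2 to day +8 it fell in WT A to C (log2FC -0.61 ± 0.12, adjusted p = 0.00032), in the Mfn1-/- line (log2FC -1.16 ± 0.12, adjusted p = 1.82e-09) and in WT D to F (log2FC -0.84 ± 0.12, adjusted p = 2.03e-06). In Mfn2-/- MEFs the difference did not pass (log2FC -0.23 ± 0.12, adjusted p = 0.164), and with only the 6 Mfn2-/- libraries it did (adjusted p = 0.00422). The step from day 0 to day +3 passed in Mfn1-/- MEFs (log2FC -0.77 ± 0.12, adjusted p = 2.41e-05), but not with only its 6 libraries (adjusted p = 0.0203). For WT A to C 0 of the 3 single steps passed with limma, edgeR or DESeq2, and in limma 1 had an unadjusted p under 0.05. On the authors' scale the step from day 0 to day +3 passed there (log2FC -0.59).

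Rara (ENSMUSG00000037992, chromosome 11, 98927818 to 98974942, plus strand), the alpha receptor, had group means that ran from 528 ± 86.4 in WT D to F at day -2 to 1153 ± 66.1 in Mfn1-/- MEFs at day -2. At day -2 Mfn1-/- libraries held 1208, 1079.7 and 1173 and WT A to C 781, 699 and 852. The 2 groups did not overlap there. The log2FC was 0.62 ± 0.18 at day -2, 0.61 ± 0.18 at day 0, 0.27 ± 0.18 at day +3 and 0.45 ± 0.18 at day +8. For the Mfn2-/- line it was 0.35 ± 0.18 and 0.42 ± 0.18. Of the members counted as passing, Rara was one in Mfn1-/- MEFs at day -2 and day 0, counts that follow from how the genes were chosen. At day 0 the groups overlapped, with Mfn1-/- library C at 796 inside the WT range of 613 to 831. Against all 6 WT libraries the Mfn2-/- values were 0.07 at day -2 and 0.27 at day +8, and those of the Mfn1-/- line were 0.85 and 0.66. Rara passed in 0 of the 10 comparisons between days with limma, edgeR or DESeq2, and in limma 0 of them had an unadjusted p under 0.05. On the authors' scale between days 1 of them passed, Mfn1-/- MEFs from day 0 to day +3 (log2FC -0.74). The highest and lowest of the 10 log2FC were 0.25 and -0.33.

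**Figure D4:**
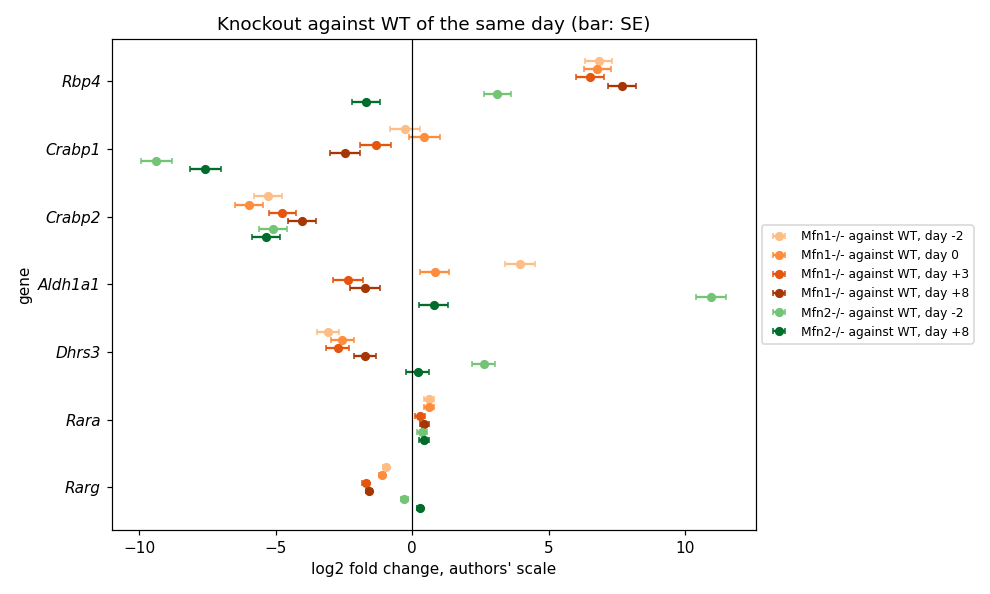
Log2 fold change of each knockout against the WT libraries of its block and day for the 7 genes (points, with SE as bars, n = 3 against 3 libraries, value plus 1 on the authors' scale). Crabp2 is below 0 in all 6 comparisons, Rbp4 is above 0 in 5, and the fitted Crabp1 values in Mfn2-/- MEFs rest on 0 and 2 knockout reads.

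Compared per length of exon, the order of the members changed with the day. In WT A to C at day -2 Crabp1 led with 2257 rescaled counts per kilobase of exon, ahead of Rarg (848), Rara (178) and Crabp2 (152), whereas Rbp4 (1.33) and Aldh1a1 (1.32) came last. By day +8 Dhrs3 (781) and Crabp1 (704) led in WT A to C, ahead of Aldh1a1 (621). The length counted every annotated exonic base over all transcripts of a gene, which was 4937 bases for Aldh1a1. Its longest transcript is far shorter, with 2309 stretches of 50 bases. The place of Aldh1a1 in this order therefore depends on the length used. In the libraries labelled Mfn1-/- at day +8 Rbp4 led with 5092 per kilobase. In Mfn2-/- MEFs at day -2 it was Aldh1a1, with 1013. No exon of the 7 genes is shared with another annotated gene on either strand.

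Over the 12 group means of log2 levels, Pearson's r between Rbp4 and Rarg was -0.91, between Aldh1a1 and Dhrs3 0.63 and between Rbp4 and Dhrs3 -0.01. These are descriptions over 12 points that share libraries and cell lines. Of all genes with a mean of at least 100 in some group, the 3 most like Rbp4 were Ffar4 (0.96), Rreb1 (0.95) and Lpl (0.94), with r over the 12 group means in brackets. Lpl, lipoprotein lipase, is a fat cell gene. The 3 most like Aldh1a1 were Igfbp2 (0.95), Selenop (0.91) and Cdadc1 (0.91), and those most like Dhrs3 were Prkce (0.94), Tmem161b (0.94) and Tube1 (0.92). Crabp1 was closest to Ank3 (0.98), Grem1 (0.98) and Plekho2 (0.98), and Crabp2 to Galnt13 (0.98), Klra4 (0.98) and Tbx3 (0.98). The nearest to Rara were Stk25 (0.96), Klf13 (0.93) and Plin3 (0.93), and to Rarg Otud7b (0.97), Rprd1a (0.96) and Dok1 (0.96).

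The other genes of the pathway were taken from a list of 52 written by role, of which 38 were measured and tested. They include further enzymes, Cyp26b1 of retinoic acid clearance, other receptors and genes known to respond to retinoic acid. The genes Aldh1a2, Cyp26a1 and Lrat were not analysed here. In Mfn1-/- MEFs at day -2, 15 of 38 passed, 7 higher and 8 lower, beside 22.4% of all genes. The counts were 14 at day 0 (21.5% of all genes), 10 at day +3 (21.5%) and 24 at day +8 (50.2%), or 63.2% of the 38. The Mfn2-/- line had 21 at day -2 (35.5%), 10 higher and 11 lower. At day +8 20 passed (38.1%), 6 higher and 14 lower. The median log2FC of the 38 ran from -0.38 in Mfn2-/- MEFs at day +8 to 0.31 in the libraries labelled Mfn1-/- at day +8, where the medians of all genes were -0.03 and -0.07.

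Of 13 further redox enzymes, 5 passed in Mfn1-/- MEFs at day -2 (22.4% of all genes), 5 at day 0 (21.5%), 4 at day +3 (21.5%) and, in the libraries labelled Mfn1-/-, 9 at day +8 (50.2%), and 9 in Mfn2-/- MEFs at day -2 (35.5%) and 7 at day +8 (38.1%). Aldh1a3, Cyp1b1 and Adh7 each kept 1 direction in all 6 comparisons. Aldh1a3, another retinaldehyde dehydrogenase, was higher in each, from log2FC 2.86 in the libraries labelled Mfn1-/- at day +8 to 3.59 in Mfn1-/- MEFs at day -2. Its level was low, 59.2 ± 10.3 in Mfn2-/- MEFs and 6.34 ± 0.424 in WT at day -2 (log2FC 2.96 ± 0.57, adjusted p = 6.43e-05). Cyp1b1, a cytochrome P450 that can oxidise retinol, was higher in each, with log2FC 4.31 ± 0.33, adjusted p = 1.92e-11 in Mfn1-/- MEFs at day -2 and log2FC 3.26 ± 0.33, adjusted p = 2.16e-09 in Mfn2-/- MEFs at day +8. Adh7, a retinol dehydrogenase of the cytosol, was lower in each, from -2.17 in Mfn2-/- MEFs at day -2 to -5.72 in the libraries labelled Mfn1-/- at day +8. The largest adjusted p of these 18 values was 0.00128. With only the 6 libraries of a comparison, Aldh1a3 at day +3 (adjusted p = 0.0293) and Cyp1b1 at day +8 (adjusted p = 0.0613) did not pass in the Mfn1-/- line. Cyp1b1 at day +8 also missed the threshold without WT library A (adjusted p = 0.0101) or without library C labelled Mfn1-/- (log2FC 0.67, adjusted p = 0.0261).

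Rdh10, which makes the retinal that ALDH1A1 uses, was lower in Mfn1-/- MEFs at day 0 (log2FC -1.56 ± 0.21, adjusted p = 6.65e-07), in the libraries labelled Mfn1-/- at day +8 (log2FC -1.04 ± 0.21, adjusted p = 9.26e-05) and in Mfn2-/- MEFs at day +8 (log2FC -1.02 ± 0.21, adjusted p = 0.000171). Dhrs9, a retinol dehydrogenase, was lower in Mfn2-/- MEFs at day -2 (log2FC -2.00 ± 0.35, adjusted p = 2.22e-05) and day +8 (log2FC -3.88 ± 0.35, adjusted p = 1.30e-10). Dhrs4, a retinal reductase like Dhrs3, was higher in Mfn2-/- MEFs at day -2 (log2FC 2.55 ± 0.23, adjusted p = 5.31e-11), as Dhrs3 was. Cyp26b1, which breaks retinoic acid down, was lower in Mfn2-/- MEFs at day +8 (log2FC -4.03 ± 0.66, adjusted p = 8.20e-06), with levels of 3.27 ± 3.44 against 61.1 ± 14.2. In the Mfn1-/- line Cyp26b1 passed on 0 of 4 days with limma and edgeR and on 1 with DESeq2. In limma 2 days had an unadjusted p under 0.05, and the adjusted p ran from 0.0132 to 0.998.

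Of 5 supply and storage genes, 3 passed in Mfn1-/- MEFs at day -2 (22.4% of all genes), 1 at day 0 (21.5%), 1 at day +3 (21.5%) and, in the libraries labelled Mfn1-/-, 4 at day +8 (50.2%), and 1 in Mfn2-/- MEFs at day -2 (35.5%) and 4 at day +8 (38.1%). Stra6, the receptor that takes retinol from RBP4, was higher in Mfn2-/- MEFs at day +8 (log2FC 4.76 ± 0.58, adjusted p = 4.88e-08), with 215 ± 60.2 rescaled counts against 6.95 ± 3.71 in WT. It was lower in Mfn1-/- MEFs at day -2 (log2FC -2.96 ± 0.58, adjusted p = 0.000183), from -3.69 without WT library C to -2.41 without WT library A, and just missed the threshold with only those 6 libraries (adjusted p = 0.0119). Lpl, which is also one of the fat cell markers, was higher in 5 comparisons and lower in Mfn2-/- MEFs at day +8 (log2FC -2.99 ± 0.25, adjusted p = 3.62e-11). Dgat1, which can store retinol as an ester, was higher in the libraries labelled Mfn1-/- at day +8 (log2FC 1.89 ± 0.15, adjusted p = 4.61e-12) and lower in Mfn2-/- MEFs at day +8 (log2FC -1.74 ± 0.15, adjusted p = 1.99e-11).

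Of 11 receptors and partners, 1 passed in Mfn1-/- MEFs at day -2 (22.4% of all genes), 1 at day 0 (21.5%), 1 at day +3 (21.5%) and, in the libraries labelled Mfn1-/-, 5 at day +8 (50.2%), and 4 in Mfn2-/- MEFs at day -2 (35.5%) and 2 at day +8 (38.1%). Rarb, itself a retinoic acid target, was lower in Mfn1-/- MEFs at day +3 (log2FC -2.91 ± 0.47, adjusted p = 1.21e-05) and in the libraries labelled Mfn1-/- at day +8 (log2FC -2.79 ± 0.47, adjusted p = 7.87e-06). Its level at day +3 was 24.1 ± 14.3 in Mfn1-/- MEFs and 176 ± 63.0 in WT. Exons of other genes on the opposite strand cover 38.4% of the exonic bases of Rarb. The strand setting of the counts is not given, so what these genes add to or take from all Rarb values is not known. Rxra, a partner of the receptors, passed in 0 of 6 comparisons with limma, and its log2FC lay between -0.37 and 0.38. In 3 of the 6 its unadjusted p was under 0.05, and edgeR called 0 and DESeq2 1. Rxrb was higher in the libraries labelled Mfn1-/- at day +8 (log2FC 0.64 ± 0.13, adjusted p = 9.52e-05), though not with only those 6 libraries (adjusted p = 0.0238). Fabp5, which carries retinoic acid to another receptor, PPARD, was lower in Mfn1-/- MEFs at day -2 (log2FC -2.36 ± 0.23, adjusted p = 1.55e-09) and in Mfn2-/- MEFs at day -2 (log2FC -2.31 ± 0.23, adjusted p = 8.49e-10), as Crabp2 was. At day +8 Fabp5 was higher in the libraries labelled Mfn1-/- (log2FC 2.02 ± 0.23, adjusted p = 1.16e-08) and lower in Mfn2-/- MEFs (log2FC -2.07 ± 0.23, adjusted p = 8.92e-09).

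Of the 8 genes listed as responding to retinoic acid, 6 passed in Mfn1-/- MEFs at day -2 (22.4% of all genes), 7 at day 0 (21.5%), 4 at day +3 (21.5%) and, in the libraries labelled Mfn1-/-, 6 at day +8 (50.2%), and 7 in Mfn2-/- MEFs at day -2 (35.5%) and 6 at day +8 (38.1%). At day -2 the count was 4 higher and 2 lower in Mfn1-/- MEFs, and 3 higher and 4 lower in Mfn2-/- MEFs. The list did not move in 1 direction. Meis1, a homeobox gene, was higher in Mfn1-/- MEFs at day -2 (log2FC 2.24 ± 0.19, adjusted p = 7.62e-11) and lower in Mfn2-/- MEFs at day -2 (log2FC -1.66 ± 0.19, adjusted p = 1.28e-08), and Meis2 went the other way (-0.77 and 1.52). Nr2f1, an orphan nuclear receptor, was lower in Mfn2-/- MEFs at day -2 (log2FC -4.44 ± 0.27, adjusted p = 7.89e-15). Tgm2, a transglutaminase, was higher in Mfn2-/- MEFs at day -2 (log2FC 3.02 ± 0.22, adjusted p = 5.07e-13). Exons on the opposite strand cover 21.8% of its exonic bases, so the same limit as for Rarb holds.

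**Figure D5:**
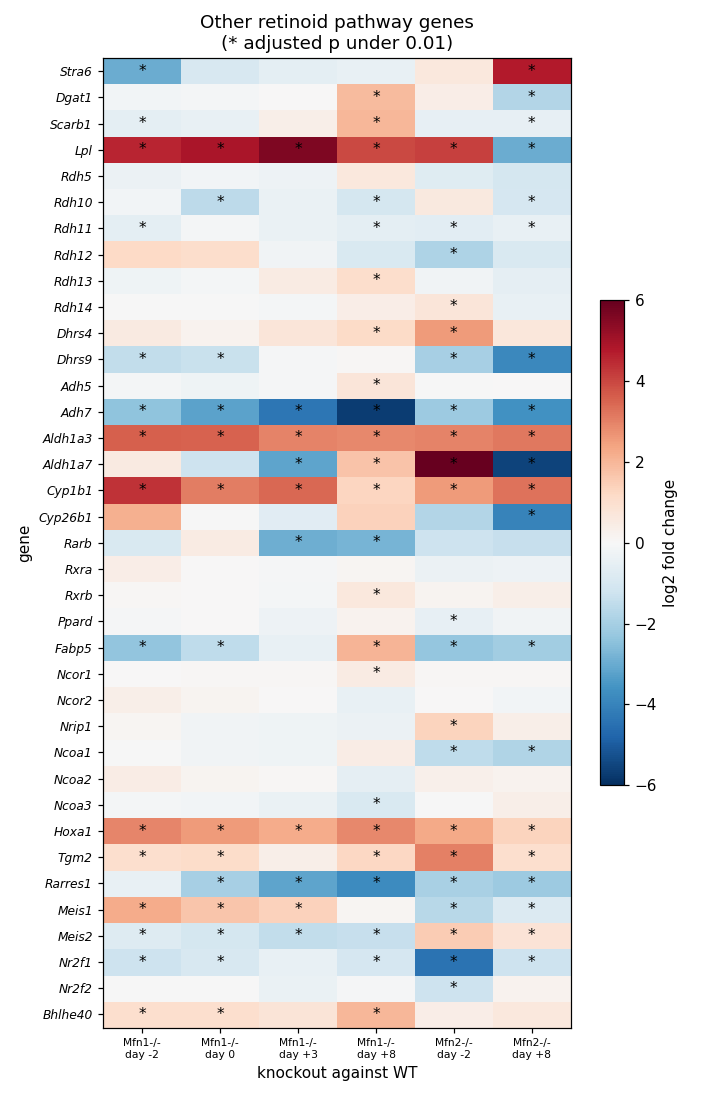
Log2 fold change of 37 of the 38 other retinoid pathway genes in the 6 knockout comparisons, red for higher and blue for lower than WT, with values beyond 6 drawn at the end of the scale. Stars mark an adjusted p under 0.01, and Aldh1a3 and Cyp1b1 are higher and Adh7 is lower in all 6 columns.

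Between day -2 and day +8, 9 of the 38 other pathway genes passed in WT A to C (15.3% of all genes), 23 in the Mfn1-/- line (43.2%), 15 in WT D to F (25.4%) and 10 in Mfn2-/- MEFs (17.6%). Rarb rose as Aldh1a1 and Dhrs3 did in WT A to C (log2FC 2.61 ± 0.47, adjusted p = 0.000121) and in WT D to F (log2FC 3.08 ± 0.47, adjusted p = 6.05e-06), and also in Mfn2-/- MEFs (log2FC 3.03 ± 0.47, adjusted p = 1.21e-05). In the Mfn1-/- line its difference did not pass (log2FC 0.79 ± 0.47, adjusted p = 0.158). Stra6 fell in WT A to C (log2FC -3.18 ± 0.58, adjusted p = 0.000138) and WT D to F (log2FC -3.92 ± 0.58, adjusted p = 3.56e-06), while Rbp4, whose protein it binds, rose. In Mfn2-/- MEFs Stra6 did not pass (log2FC 0.31 ± 0.58, adjusted p = 0.744). Rdh10 rose in WT D to F (log2FC 1.26 ± 0.21, adjusted p = 2.07e-05), and Cyp1b1 fell in the Mfn1-/- line (log2FC -2.91 ± 0.33, adjusted p = 2.16e-08). Rxra passed in 0 of these 4 comparisons with limma, edgeR or DESeq2, 3 of which had an unadjusted p under 0.05 in limma, with log2FC from 0.08 to 0.39.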

How the data were processed

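RNA was sequenced from 36 libraries of MEFs, described by the labels as independent biological replicates, 3 per group. Per the paper's methods, the authors trimmed reads with cutadapt, aligned them to GRCm38 with STAR, handled alignments with SAMtools and counted them with featureCounts; versions, annotation and strand setting are not given in the sources used here. The deposited signal values are read counts that the authors divided by 1 size factor per library, set separately in 6 blocks of 6 libraries. Whole reads were recovered for 100% of values (within 0.01). Lines that repeated a symbol held identical values and were merged, from 16623 lines to 14761 genes, and 99.81% of symbols matched 1 GENCODE vM21 gene. Columns left out numbered 0.

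limma 3.58.1 (trend and robust) in R 4.3.3 fitted 12 group means to log2(value + 1) for the 14293 genes with at least 10 in 3 or more libraries. p-values were adjusted by Benjamini-Hochberg over all of them, with a threshold of 0.01. Knockout comparisons used the authors' scale within a block. Between days, values were rescaled by TMM (edgeR 4.0.16), since the authors' scales were taken as not shared. This moved comparisons by up to 0.41 on the log2 scale. edgeR 4.0.16 and DESeq2 1.42.0 on recovered reads, other pseudocounts and filters, other scales, fewer libraries and the replicate letter as a block were alternatives. Tests were checked on simulated data.

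The members and gene lists were chosen with earlier results of these data known. Besides the members, the text draws its named genes from, per role list and knockout or day +8 against day -2 comparison, up to 2 rises and 2 falls past the threshold with a mean of at least 100, and fixed defining genes (Aldh1a3, Rdh10, Cyp26b1, Rarb, Rxra, Rxrb and Stra6) whatever their result. 1 gene of the list is counted but not reported by name. Named genes may be given in further comparisons too. Same-letter libraries deviated together in the Mfn1-/- comparisons of day +3 (r from 0.52 to 0.70) and day +8 (0.24 to 0.30) and in WT A to C from day 0 to day +3 (0.14 to 0.29), each of 3 pairs. Weaker values above those of unlike letters were seen in the Mfn1-/- comparison of day 0 (0.09 to 0.25). The same held in WT A to C from day +3 to day +8 (0.08 to 0.18). The main fits held no pairs, and the letter entered only as a block in an alternative fit. Ratios of groups with few reads carry exact 95% counting intervals, which cover counting error only, and 3 reads stood for a group at 0. Promoter windows came from RefSeq.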

Additional observations from a re-analysis of the deposited data

Results flagged for a closer look

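Several members differed from WT in opposite directions in the 2 knockout lines, every library of the one lying on the other side of its WT group from every library of the other, and the difference between the lines was not tested in any of these cases. Dhrs3 did so at day -2, with a log2FC of -3.09 in Mfn1-/- MEFs and 2.62 in Mfn2-/- MEFs. At day +8 Rbp4 was at 7.68 in the libraries labelled Mfn1-/- and -1.70 in Mfn2-/- MEFs. On that day Aldh1a1 was at -1.73 and 0.78, Dhrs3 at -1.74 and 0.20, and Rarg at -1.58 and 0.28. The Mfn2-/- values of these last 3 were not among those passing (SE 0.55, 0.41 and 0.12). Against all 6 WT libraries the Mfn2-/- values at day +8 were -0.27 for Rbp4, 0.35 for Aldh1a1 and 0.16 for Rarg. In rescaled counts the Mfn2-/- libraries of day +8 lay within the range of WT A to C for Rbp4, Aldh1a1, Dhrs3 and Rarg. The side on which they stood thus depended on the WT set. In the course from day -2 to day +8, every WT D to F library of Aldh1a1 at day +8 lay above every one at day -2 (log2FC 9.57), and every Mfn2-/- library at day +8 lay below every one at day -2 (-0.85, a difference that did not pass the test). These members were chosen with such values known.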

How the results depend on the processing

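Of 300 recomputed counts of calls, 287 stayed within 1.5 times the reported count. Of the recomputed results for single genes, 4969 stayed the same, 95 gained a call and 74 lost one. A further 33 knockout values of members moved in size, and 0 called results reversed. With only the libraries of the comparison in the fit, the members passing were 0 in WT A to C from day -2 to day 0, 0 from day +3 to day +8, and 4 in Mfn2-/- MEFs from day -2 to day +8. Other pathway genes passing from day -2 to day +8 were then 14 in the Mfn1-/- line, 24 in WT D to F and 17 in Mfn2-/- MEFs. In WT A to C from day +3 to day +8 the members passing were 2 with a pseudocount of 5, with a minimum of 50, with edgeR and with DESeq2, and from 1 to 2 when 1 library was left out. The count of 2 arose without library B of day +3. On the authors' scale, 1 member passed from day -2 to day 0 in Mfn1-/- MEFs. A pseudocount of 5 took the log2FC of Rbp4 in Mfn1-/- MEFs at day -2 from 6.82 to 5.58 and that of Crabp2 at day 0 from -5.98 to -5.04, since these groups hold few reads. Fits with only some libraries hold fewer samples and do not share the spread of the other groups. For Crabp1 in WT D to F from day -2 to day +8 the SE was 0.57 in the main fit and 0.078 with only its 6 libraries. The cause of these shifts was not tested.

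With the letter as a replicate block, 24 other pathway genes passed in WT D to F from day -2 to day +8 in place of 15, in libraries whose letters were not found to pair them (r from -0.04 to 0.01). Where letters pair, the block added the calls of Ncoa1 (log2FC 0.44, adjusted p = 0.00532) and Ncoa2 (log2FC -0.56, adjusted p = 0.0029) in the Mfn1-/- comparison of day +8. The count of other pathway genes went from 24 to 25 there, so calls were lost as well. In WT A to C from day 0 to day +3 the count fell from 5 to 4. The block changed no member's call in WT A to C from day 0 to day +3. No paired analysis was possible for Mfn2-/- against WT because the column letters are not those of the labels. Groups with under 20 reads, as for Crabp2 in the knockout lines, limit what depth can show.

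Leaving out 1 library gave from 12 to 14 other pathway genes in Mfn1-/- MEFs at day -2, from 11 to 13 at day 0, from 10 to 13 at day +3 and from 21 to 26 at day +8, and in Mfn2-/- MEFs from 19 to 21 at day -2 and from 17 to 19 at day +8.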
